A study of Xenopus laevis with 59 samples.

Results

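The transcripts described here encode the regulators of a family of small GTPases that includes RhoA, Rac1 and Cdc42, the GTPases themselves and the proteins that start actin filaments in Xenopus laevis oocytes. They were taken by symbol from the count table, after removal of the .L or .S ending that marks the 2 homeologs (copies) of a gene in this allotetraploid frog. A symbol counted as a member when it began with arhgef, arhgap, arpc, diaph or fmn, when it lay in the series of GTPase symbols from rhoa to rhov or was rac with a digit, or when it was cdc42 or plec. This gave 143 members among 32291 transcripts. They comprised 55 GTPase-activating proteins (GAPs), 42 guanine nucleotide exchange factors (GEFs), 23 small GTPases, 12 formins, 9 subunits of the Arp2/3 complex and 2 plectin transcripts. The rule reads the symbols and no measured value.

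Oocytes had been cut along the animal-vegetal axis into 5 sections, from A at the extremely animal end through B, C in the centre and D to E at the extremely vegetal end, and each section gave 1 RNA library (TOMO-Seq). There were 3 very small oocytes (560 to 580 µm, 14 libraries, since the first of them has no section A), 5 small oocytes (720 to 810 µm, 25 libraries), 2 medium oocytes (1050 µm, 10 libraries) and 2 big oocytes (1140 and 1200 µm, 10 libraries). All were untreated. The small, medium and big oocytes came from 1 female and the very small oocytes from another, so that a difference between very small and small oocytes and a difference between these females cannot be told apart. The p-values measure the spread between oocytes within a size class, each class from 1 female, and not between animals. In the fits of all libraries and of totals this spread is pooled over all size classes, and so over oocytes of both females.

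Small GTPases are molecular switches that are active when bound to GTP. GEFs load them with GTP, GAPs speed up its hydrolysis, and active RhoA, Rac1 and Cdc42 steer myosin contraction and the building of actin filaments. Formins start and lengthen unbranched filaments, whereas the Arp2/3 complex starts branches on existing ones. In frog oocytes and eggs this machinery works mainly in the cortex, where zones of active RhoA and Cdc42 form around wounds and a zone of active RhoA forms at the cleavage furrow.

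Library totals ran from 1014060 to 7356435 counts, with a median of 3617724, and section E of medium oocyte 1 was the shallowest. A scaled count is the count after TMM scaling to the mean library depth. A share is the percent of an oocyte's 5 scaled counts found in 1 section (20% means an even spread), and a printed total is their sum. Tests of totals instead used raw counts summed per oocyte with TMM scaling after summing, which weights each section by its depth. Their log2 changes can therefore differ from the printed totals. Each section was sequenced from similar amounts of RNA, so that shares and totals are relative to the other transcripts and not amounts per section or per oocyte. The vegetal gradient compares section E with the mean of A to C on the log2 scale, the animal gradient compares A with the mean of C to E, and the polar contrast compares the mean of A and E with C. Each value for medium and big oocytes is the average over both classes and rests on 4 oocytes. A transcript was called at an adjusted p (padj) under 0.1 with a mean total over 20 counts per oocyte. The tests were edgeR quasi-likelihood tests with Benjamini-Hochberg adjustment over all transcripts. For sections, gradients and the polar contrast the mean was taken over the size classes used. For changes, profiles and totals the class with the highest mean sufficed, so that a transcript can pass on the class where it is high. Errors after ± are approximate standard errors of log2 values, derived from the log2 value and the F statistic of its test. Of 25 transcripts on the list of oocyte and axis markers, 17 were higher and 1 lower at the vegetal end of medium and big oocytes. Their median vegetal gradient was 3.02, which goes with the label of section E. Before sequencing, the authors kept only samples in which marker transcripts formed continuous gradients by RT-qPCR, so that this is not an independent check of the labels.

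In the fit of all libraries 115 members passed the filter on low counts, and the other 28 had a mean total of at most 24.8 in any size class. In medium and big oocytes 16 of the 115 members were called higher at the animal end, against 13.1% of all 19210 transcripts, and 12 lower, against 11.6%. At the vegetal end 13 members were called higher, against 11.5%, and 13 lower, against 10.1%. Without big oocyte 2 the 16 became 9 and without medium oocyte 2 they became 10, while those of all transcripts went from 2520 to 1553 and 1408. The shares of members called were near those of all transcripts, and the members' median animal gradient was -0.01, beside 0.01 over all transcripts. The members' median vegetal gradient was 0.01, beside -0.01.

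Counts by role stand beside the shares of all transcripts at the animal end of medium and big oocytes, 13.1% higher and 11.6% lower. Of the 9 Arp2/3 transcripts, which include both copies of several genes, 5 were called higher at the animal end and 0 lower. Of the 42 GAPs tested 1 was higher and 7 were lower, of the 33 GEFs 5 were higher and 4 lower, and of the 10 formins 3 were higher and 1 lower. Of the 19 small GTPases 2 were higher and 0 lower, and neither plectin transcript was called. Differences between the roles were not tested.

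**Figure D1:**
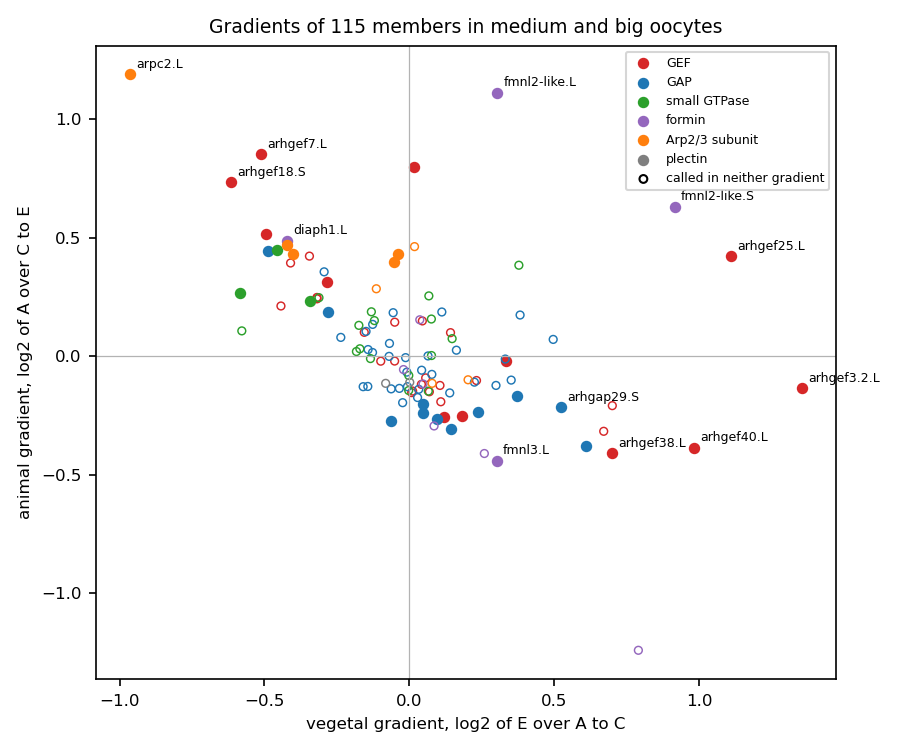
Vegetal gradient (x axis, log2 of section E over A to C) against animal gradient (y axis, log2 of A over C to E) in medium and big oocytes, 1 point for each of the 115 members tested, coloured by role; filled points were called in at least 1 of the gradients. Most members lie near 0, arpc2.L lies at -0.96 and 1.19, arhgef7.L (-0.51 and 0.85) and arhgef18.S (-0.62 and 0.74) lie between it and 0, and arhgef40.L and arhgap29.S lie on the vegetal side.

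The 4 GEFs arhgef18.S, arhgef7.L, arhgef10.L and arhgef12.S were called higher at the animal end of medium and big oocytes, and none of them had a called animal or vegetal gradient in small ones. arhgef18.S encodes a copy of the RhoA GEF that in mammals acts at epithelial junctions. Its section A share was 20.9%, 19.9%, 17.0%, 19.5% and 19.7% in the 5 small oocytes, 28.6% and 26.9% in the medium and 25.9% and 26.9% in the big ones. Its section E share was 19.7%, 18.9%, 18.9%, 20.9% and 19.2% in small oocytes, 17.2% and 14.8% in medium and 13.4% and 15.2% in big ones. All 4 medium and big oocytes were above all small ones in A and below them in E. The animal gradient was 0.74 ± 0.06 (padj = 6.23e-13), that is 1.66-fold, and the vegetal gradient was -0.62 ± 0.07 (padj = 2.02e-09). In small oocytes the animal gradient was -0.03 ± 0.06, and the change between the size classes was 0.76 ± 0.09 (padj = 7.27e-09).

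arhgef7.L encodes a copy of β-PIX, a GEF for Rac1 and Cdc42 that binds PAK kinases in mammals. Section A held 23.1%, 18.9%, 15.9%, 21.1% and 21.6% of its RNA in small oocytes, 28.01% and 30.46% in medium and 28.3% and 30.4% in big ones, again without overlap. In medium and big oocytes the animal gradient was 0.85 ± 0.08 (padj = 8.21e-13, 1.81-fold) and its change from small oocytes 0.77 ± 0.10 (padj = 3.66e-07). Both calls held whichever oocyte was left out. The fall of its vegetal gradient, by 0.41 ± 0.11 on the log2 scale (padj = 0.0119), was lost without big oocyte 1.

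arhgef10.L, a GEF, rose less. Section A held 20.7%, 19.2%, 19.4%, 18.04% and 19.5% of it in small oocytes, 24.7% and 25.9% in medium and 25.0% and 25.7% in big ones, with no overlap. Its animal gradient was 0.52 ± 0.06 (padj = 1.98e-09) and its change 0.54 ± 0.09 (padj = 1.79e-05). arhgef12.S encodes a copy of LARG, a RhoA GEF that in mammals acts downstream of heterotrimeric G proteins. Section A held 20.04%, 17.0%, 15.4%, 18.9% and 22.9% of it in small oocytes, 24.2% and 24.2% in medium and 20.6% and 23.7% in big ones, so that big oocyte 1 lay within the range of the small ones. Its animal gradient was 0.31 ± 0.07 (padj = 0.000625) and the change 0.42 ± 0.10 (padj = 0.00491).

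The change of the animal gradient between small and medium or big oocytes was called upward in 8 members, against 2.98% of all transcripts, and downward in 0, against 1.69% (edgeR; 2 members had an unadjusted p under 0.05). The 8 were 5 GEFs, 1 GAP, 1 formin and 1 Arp2/3 subunit. The remaining GEF was arhgef2.L, a copy of the microtubule-bound RhoA GEF known as GEF-H1. Its RNA in section A made up 19.96%, 17.7%, 16.9%, 17.1% and 17.7% in small oocytes, 20.3% and 21.4% in medium and 20.8% and 21.3% in big ones. The change was 0.31 ± 0.09 (padj = 0.0382) and was lost without medium oocyte 2 or without small oocyte 4, and the animal gradient in medium and big oocytes, 0.10 ± 0.06, was not called (padj = 0.28). The vegetal gradient changed downward in 7 members, against 2.47%, and upward in 3, against 3.83%. With the oocyte as replicate block, the counts were 7 and 5. All 7 that fell also had the upward change at the animal end, which uses section E as well, so that the 2 changes rest partly on the same libraries. Without big oocyte 1 the 7 became 3. The count of all transcripts without that oocyte is not given here. Over the whole profile of sections, 9 of 115 members changed between small and medium or big oocytes, against 5.36% of all transcripts.

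**Figure D2:**
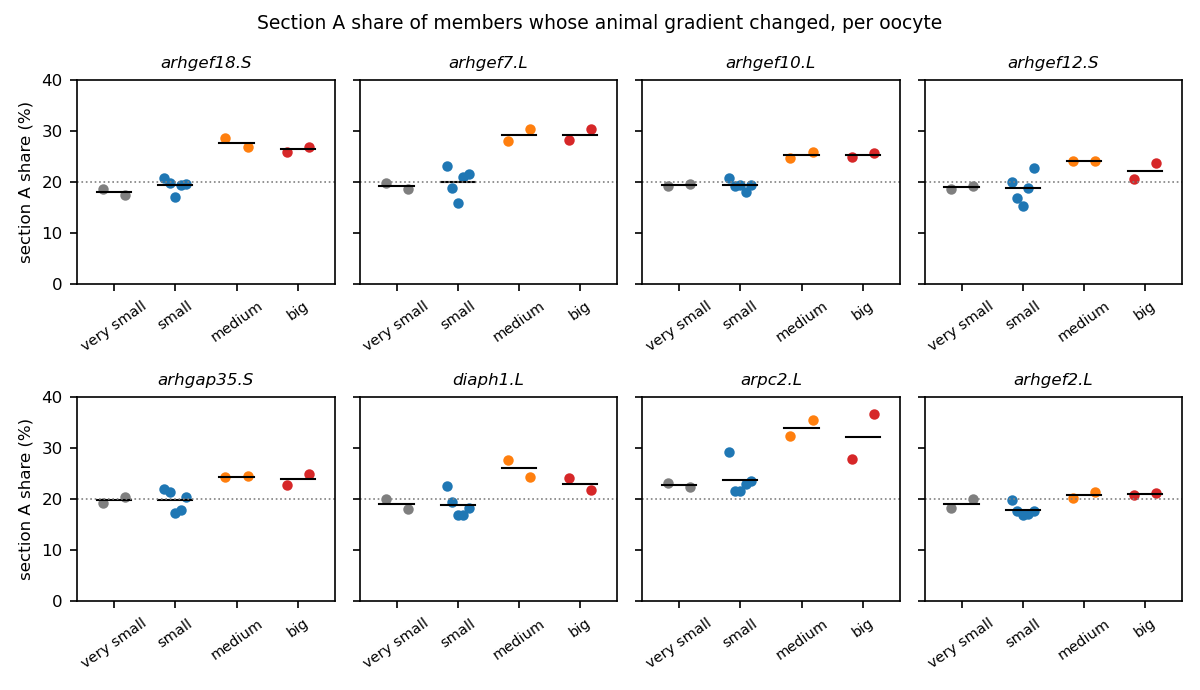
Section A share (percent of an oocyte's scaled counts, y axis) of the 8 members whose animal gradient rose, 1 point per oocyte by size class, with the mean as a line and 20% dotted. For arhgef18.S, arhgef7.L and arhgef10.L the medium and big oocytes sit above every small oocyte, whereas arpc2.L is above 20% in small oocytes already.

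The GAP with an animal rise was arhgap35.S, a copy of p190RhoGAP, which turns RhoA off. The share in section A was 22.0%, 21.4%, 17.3%, 17.98% and 20.5% in small oocytes, 24.3% and 24.5% in medium and 22.8% and 25.0% in big ones. The section E share was 17.99%, 19.6%, 20.7%, 20.8% and 18.3% in small oocytes and 14.6%, 17.6%, 13.8% and 16.2% in the medium and big ones. Neither end overlapped between the classes. The animal gradient was 0.44 ± 0.06 (padj = 4.22e-07), the vegetal one -0.49 ± 0.07 (padj = 2.34e-07), and the change of the animal gradient 0.44 ± 0.09 (padj = 0.00029).

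Among the formins, diaph1.L, a copy of the formin that RhoA activates directly, followed the same course. The share in section A was 22.6%, 19.5%, 17.0%, 16.9% and 18.3% in small oocytes, 27.8% and 24.4% in medium and 24.3% and 21.8% in big ones. Big oocyte 2 lay below small oocyte 1, and the other 3 lay above all small oocytes. The animal gradient was 0.49 ± 0.07 (padj = 2.77e-07) and its change 0.57 ± 0.09 (padj = 1.78e-05). No animal gradient was called for the other diaphanous formins. diaph3.L had an animal gradient of -0.06 ± 0.10 (padj = 0.752), and diaph2.L had a mean total of at most 4.46 and was not tested. The formin-like fmnl2-like.L (1.11, 2.16-fold) and fmnl2-like.S (0.63) were also called higher at the animal end of medium and big oocytes. Both calls were lost without big oocyte 2 or medium oocyte 2. Without medium oocyte 2 the value of fmnl2-like.L was 0.65. That of fmnl2-like.S was also lost without medium oocyte 1 or very small oocyte 2.

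fmnl3.L, a formin-like transcript, ran the opposite way. The share in section A was 17.1%, 16.8%, 15.1%, 16.5% and 19.4% in small oocytes, 16.3% and 14.7% in medium and 17.1% and 15.5% in big ones. The values were below 20% in all 9 oocytes of that female and the classes overlapped. The animal gradient was -0.30 ± 0.07 in small oocytes (padj = 0.00164) and -0.44 ± 0.08 in medium and big ones (padj = 1.33e-05), and its change was not called (padj = 0.714). Its vegetal gradient of 0.30 ± 0.08 (padj = 0.0022) was lost without medium oocyte 2. fmn2.L, whose mouse counterpart is needed for spindle positioning in oocytes, had an animal gradient of -0.12 ± 0.07 (padj = 0.27) and a vegetal one of 0.05 ± 0.07 (padj = 0.755). fmn1.L, with a mean total between 62.4 and 117, was not called in any gradient.

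Arp2/3 transcripts were called at the animal end both in small oocytes, 4 of 9 against 10% of all transcripts, and in medium and big ones, 5 of 9 against 13.1%. Markers of surrounding cells were also higher there. In the animal gradient of small oocytes 19 of 30 stroma, theca and smooth muscle markers were called higher and 2 lower. Of 15 granulosa and follicle cell markers 6 were higher and 0 lower. In medium and big ones 10 of the 30 were higher and 1 lower, and 4 of the 15 higher and 1 lower. In the granulosa list krt8.L (77746), krt18.L (39596) and krt19.L (22549) had the most counts over all libraries, whereas cyp19a1.L had 1991. The part of surrounding cells in the Arp2/3 values was not tested. arpc2.L encodes a copy of a core subunit that binds the mother filament. The share in section A was 23.2% and 22.5% in the 2 very small oocytes with a section A, 29.3%, 21.7%, 21.6%, 23.0% and 23.7% in small, 32.5% and 35.5% in medium and 27.8% and 36.7% in big oocytes. Its section E share was 16.4%, 12.9%, 14.5%, 19.2% and 18.8% in small oocytes, 10.5% and 14.9% in medium and 9.58% and 11.7% in big ones. Every oocyte with a section A had more than 20% of arpc2.L there, and small oocyte 1 lay above big oocyte 1. In medium and big oocytes its animal gradient was 1.19 ± 0.13 (padj = 2.98e-10, 2.28-fold), the largest among the members, and in small ones 0.43 ± 0.11 (padj = 0.00773), where the call was lost without small oocyte 1. The change of 0.76 ± 0.17 (padj = 0.00277) held whichever oocyte was left out.

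The other copy, arpc2.S, showed a smaller gradient that did not change. Its section A share was 20.6%, 25.9%, 24.9%, 24.5% and 23.9% in small oocytes, 26.6% and 26.3% in medium and 26.7% and 22.4% in big ones, with overlap. The animal gradient was 0.38 ± 0.10 in small (padj = 0.00536) and 0.47 ± 0.11 in medium and big oocytes (padj = 0.00139), and the change 0.08 ± 0.15 (padj = 0.944). arpc5.L, a small regulatory subunit, had 24.7%, 22.8%, 21.6%, 24.7% and 25.1% in section A of small oocytes, 24.9% and 29.7% in medium and 20.4% and 23.7% in big ones. Its animal gradient was 0.41 ± 0.08 (padj = 0.000551) and 0.43 ± 0.10 (padj = 0.000672) in the same order, with a change of 0.01 ± 0.15.

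The remaining Arp2/3 transcripts were less certain or flat. arpc5.S had an animal gradient of 0.31 ± 0.10 in small oocytes (padj = 0.0269, lost without small oocyte 4 or small oocyte 5) and 0.40 ± 0.12 in medium and big ones (padj = 0.0131, lost without big oocyte 2 or medium oocyte 2). arpc1b.L, at 0.43 ± 0.18 (padj = 0.0895), was lost without big oocyte 2, medium oocyte 2, small oocyte 2 or very small oocyte 2. arpc1b.S, arpc4.S, arpc5l.L and arpc5l.S were not called, with values of 0.28, -0.10, -0.11 and 0.46. No Arp2/3 transcript was called vegetally higher.

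At the vegetal end the GEF arhgef40.L led the members with a called gradient and over 100 counts per oocyte. It encodes a copy of Solo, a RhoA GEF that binds keratin filaments in mammalian cells. Its section E share was 23.0%, 23.6%, 22.5%, 21.3% and 20.03% in small oocytes, 32.5% and 29.1% in medium and 29.4% and 34.8% in big ones, without overlap. The vegetal gradient was 0.98 ± 0.10 (padj = 1.06e-11, 1.98-fold), it had risen by 0.78 ± 0.13 from small oocytes (padj = 2.17e-05), and both calls held whichever oocyte was left out. Its polar contrast was 0.55 ± 0.11 (padj = 0.000376). Section A, at 12.7% and 18.9% in medium and 18.9% and 16.9% in big oocytes, was not above 20% in any of them. The homeolog arhgef40.S had a vegetal gradient of 0.67 in medium and big oocytes, which was not called.

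arhgap29.S, a copy of a GAP that acts on RhoA, was the other vegetal member with a change. Its section E share was 22.8%, 23.3%, 19.6%, 23.3% and 20.1% in small oocytes, 26.2% and 25.3% in medium and 26.3% and 24.7% in big ones, without overlap. The vegetal gradient was 0.52 ± 0.06 (padj = 4.78e-10) and its rise from small oocytes 0.34 ± 0.08 (padj = 0.00164). The third was the GEF arhgef38.L. Its section E share was 22.6%, 23.7%, 25.4%, 19.4% and 20.6% in small oocytes, 18.2% and 29.7% in medium and 29.3% and 28.8% in big ones. Medium oocyte 1, whose section E is the shallowest library, was below all small oocytes and the other 3 were above all of them. The vegetal gradient of 0.70 ± 0.12 (padj = 6.56e-06) became 0.38 without medium oocyte 2 (padj = 0.326), and its change of 0.51 ± 0.18 (padj = 0.0979) was lost without any 1 of 11 oocytes.

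Without medium oocyte 2 the count of vegetally higher members fell from 13 to 3, with arhgef40.L and arhgap29.S among those left, whereas that of all transcripts fell from 2200 to 1833. The calls lost included 3 transcripts with few counts. arhgef3.2.L, related to a GEF for RhoA and RhoB, had 529 counts over all libraries and a vegetal gradient of 1.36 ± 0.36 (padj = 0.00398, and 0.209 without medium oocyte 2). arhgef25.L, related to a GEF of muscle, had 375 counts and 1.11 ± 0.32 (padj = 0.00899, and 0.127 without it). fmnl2-like.S, a formin-like transcript, had 683 counts and 0.92 ± 0.27 (padj = 0.0103, and 0.716 without it).

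**Figure D3:**
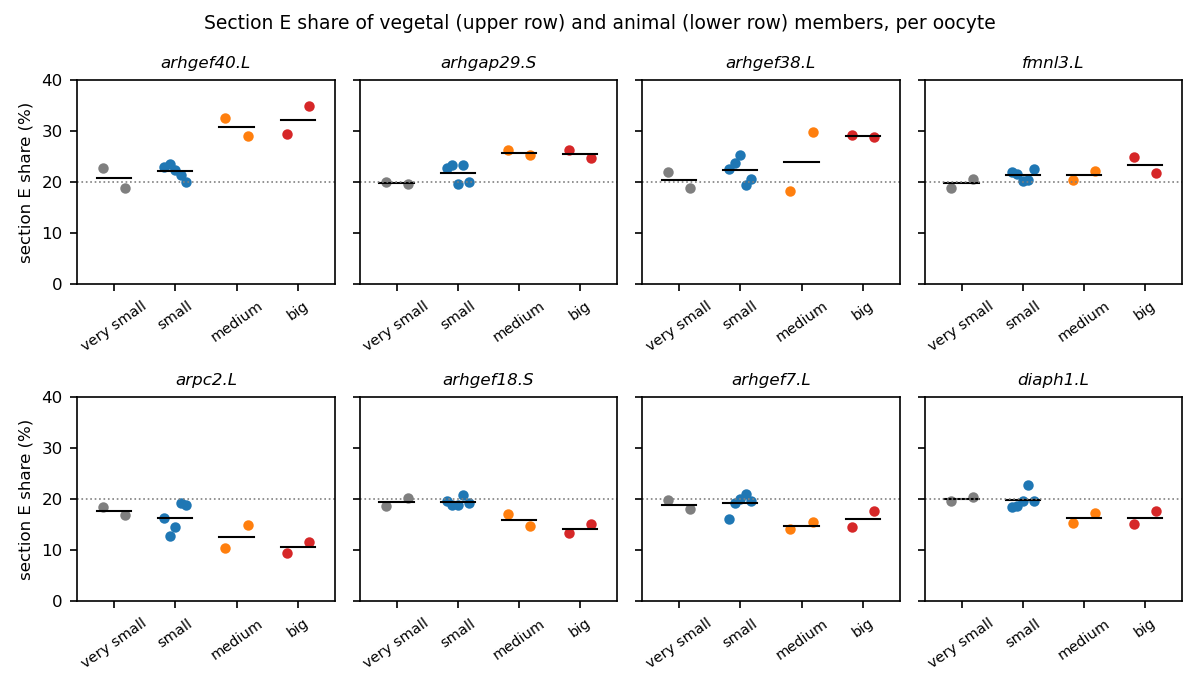
Section E share (percent of an oocyte's scaled counts, y axis) of 4 vegetal members (upper row) and 4 animal members (lower row), 1 point per oocyte by size class, with the mean as a line and 20% dotted. arhgef40.L lies between 29.1% and 34.8% in medium and big oocytes and at most at 23.6% in small ones, and medium oocyte 1 stands apart for arhgef38.L at 18.2%.

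The polar contrast sets the mean of both tips against the centre, so that 1 high tip can raise it. In medium and big oocytes it was called upward in 6 members, against 7.16% of all transcripts, and downward in 1, against 2.79%. Without medium oocyte 2 the 6 became 2 and without big oocyte 2 they became 3, and the 1 became 5 without medium oocyte 1 and 2 without big oocyte 1. Counts of all transcripts in those fits are not given here. The 6 were arhgap29.S (0.33 ± 0.06, padj = 0.000252), arhgef40.L, arhgef7.L, arhgef7.S, arhgef25.L and fmnl2-like.S. For fmnl2-like.S the section C share was 23.5% and 15.9% in medium and 4.99% and 8.67% in big oocytes, with 40.2% and 39.2% in section E of the big ones. Its polar contrast of 1.28 ± 0.31 (padj = 0.0043) became uncalled without medium oocyte 2 (padj = 0.48). Those of arhgef7.L and arhgef7.S were lost without big oocyte 2 or medium oocyte 2, and that of arhgef25.L, 1.17 ± 0.37 (padj = 0.0423), without any 1 of the 4 medium and big oocytes.

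The single downward call was arhgap20.L, a GAP, with a polar contrast of -0.32 ± 0.07 (padj = 0.00152). Its section C share was 22.6% and 22.8% in medium and 22.7% and 22.2% in big oocytes, and 21.5%, 19.9%, 23.8%, 22.4% and 21.0% in small ones. The share was close to or above 20% in all 9.

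Markers of cells around the oocyte were also higher at the tips. Of 30 stroma, theca and smooth muscle markers tested 23 were called upward in the polar contrast of medium and big oocytes, and 6 of 15 granulosa and follicle cell markers and 2 of 10 blood and endothelium markers were. The summed scaled count of the 36 stroma, theca and smooth muscle markers ran from 3995 to 5699 in section A, 3910 to 4594 in C and 6502 to 7723 in E of medium oocytes, and from 5252 to 5329, 3984 to 4133 and 4723 to 6453 in big ones. Between small and very small oocytes 15 of 31 of these markers had higher totals in small ones and 0 lower. Summed over all libraries, fn1.S (103865 counts) and fn1.L (69531) took most of the counts of that list, while acta2.L and tagln.L reached at most 37 and 33 counts in a library. In the vegetal gradient of these oocytes 23 of the 30 stroma, theca and smooth muscle markers were called higher and 0 lower, and in the animal gradient 10 higher and 1 lower. Their part in the results for arhgef25.L, fmnl2-like.S and the other members with an animal, vegetal or polar call was not tested. Among the members whose animal gradient rose, arhgef7.L was called upward in the polar contrast of medium and big oocytes (0.31). For arhgef18.S, arhgef10.L, arhgap35.S and diaph1.L this contrast lay between -0.02 and 0.09 and was not called, and arpc2.L, arhgef12.S and arhgef2.L were not called either. A high A and a low E offset each other in this contrast, so that it cannot show whether RNA of surrounding cells takes part.

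Of the 42 GAPs tested 7 were called lower at the animal end of medium and big oocytes, against 11.6% of all transcripts, and arhgap29.S and arhgap29.L were among those also called vegetally higher. The vegetal gradient of arhgap29.L was only 0.14 (1.11-fold), and its call was lost without any 1 of the medium, big or very small oocytes. Of the 7, arhgap29.L had the smallest padj. Its section A share was 18.3% and 16.0% in medium and 18.7% and 15.4% in big oocytes, and 19.9%, 18.3%, 16.9%, 17.8% and 20.4% in small ones, with overlap. Its animal gradient was -0.31 ± 0.06 (padj = 0.000129). arhgap11a.1.L, related to a RhoA GAP of dividing cells, had -0.26 ± 0.06 (padj = 0.0016), and arhgap20.L had -0.27 ± 0.07 (padj = 0.00217, lost without big oocyte 2). The animal gradients of the 7 GAPs lay between -0.31 and -0.20, so that none reached 1.5-fold.

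The transcripts of RhoA and Rac1 had no called gradient. rhoa.S had a section A share of 18.3%, 22.1%, 20.9%, 23.1% and 17.6% in small oocytes, 19.5% and 20.7% in medium and 20.3% and 19.8% in big ones. Its animal gradient in medium and big oocytes was 0.00 ± 0.09 (padj = 0.998). Those of rhoa.L, rac1.L and rac1.S were 0.02 ± 0.08, -0.14 ± 0.09 and 0.13 ± 0.10, and no gradient of these 4 transcripts was called in any size class.

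cdc42.L, a copy of the GTPase Cdc42, had calls at both ends. Its section A share was 17.4%, 16.1%, 26.0%, 20.6% and 26.4% in small oocytes, 21.1% and 27.0% in medium and 22.9% and 29.0% in big ones, with overlap. The animal gradient of 0.45 ± 0.14 (padj = 0.0153) was lost without big oocyte 2 or medium oocyte 2, and the vegetal gradient of -0.46 ± 0.15 (padj = 0.03) without big oocyte 1 or medium oocyte 1. cdc42.S had an animal gradient of 0.19 ± 0.07 in small oocytes (padj = 0.0493), which was lost without small oocyte 2 or small oocyte 4, and of 0.07 ± 0.08 in medium and big ones (padj = 0.562). rhou.S, a copy of an atypical GTPase related to Cdc42, had a vegetal gradient of -0.34 ± 0.10 (padj = 0.00757), which was lost without medium oocyte 2.

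Both copies were tested for 44 of the 60 pairs. Across these 44 pairs, measured in the same libraries, Pearson's r between the copies was 0.508 for the vegetal and 0.396 for the animal gradient of medium and big oocytes. For the animal gradient in medium and big oocytes 4 pairs were called in both copies with the same sign, 18 in 1 copy and 22 in neither. For the vegetal gradient 2 pairs were called in both copies with the same sign, 1 in both with opposite signs, 18 in 1 copy and 23 in neither. The 2 with the same sign were arpc2 and arhgap29, and the call of arhgap29.L was lost without any 1 of the medium and big oocytes. Pairs outside the members were not counted, so that these counts and correlations cannot be called particular to the members. Of all single transcripts, 13.1% were called higher and 11.6% lower in the animal gradient, and 11.5% and 10.1% in the vegetal one. A call in 1 copy and not in the other does not show that they differ, and the difference was not tested. Reads from like stretches of both copies can also be shared between them.

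The pair with opposite signs was arhgef7. The section E share of arhgef7.S was 18.1%, 21.8%, 18.2%, 21.2% and 18.2% in small oocytes, 21.1% and 25.0% in medium and 21.4% and 24.0% in big ones. That of arhgef7.L was 14.1% and 15.6% in medium and 14.7% and 17.8% in big oocytes, below its homeolog in all 4. The vegetal gradient was 0.33 ± 0.10 for arhgef7.S (padj = 0.00929, lost without big oocyte 2 or medium oocyte 2) and -0.51 ± 0.08 for arhgef7.L (padj = 5.11e-06).

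For 5 further genes with an animal copy the gradient of the second copy was not called. The section A share of arhgef18.L was 18.7% and 18.7% in medium and 20.2% and 18.7% in big oocytes, below the share of arhgef18.S in all 4, and its animal gradient was -0.12 ± 0.08 (padj = 0.341). The animal gradients of arhgef10.S, arhgef12.L and arhgap35.L were -0.19 (padj = 0.225), -0.15 (padj = 0.192) and -0.13 (padj = 0.184). That of diaph1.S, with a mean total of 172 to 173 in medium and big oocytes, was 0.15 (padj = 0.645).

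**Figure D4:**
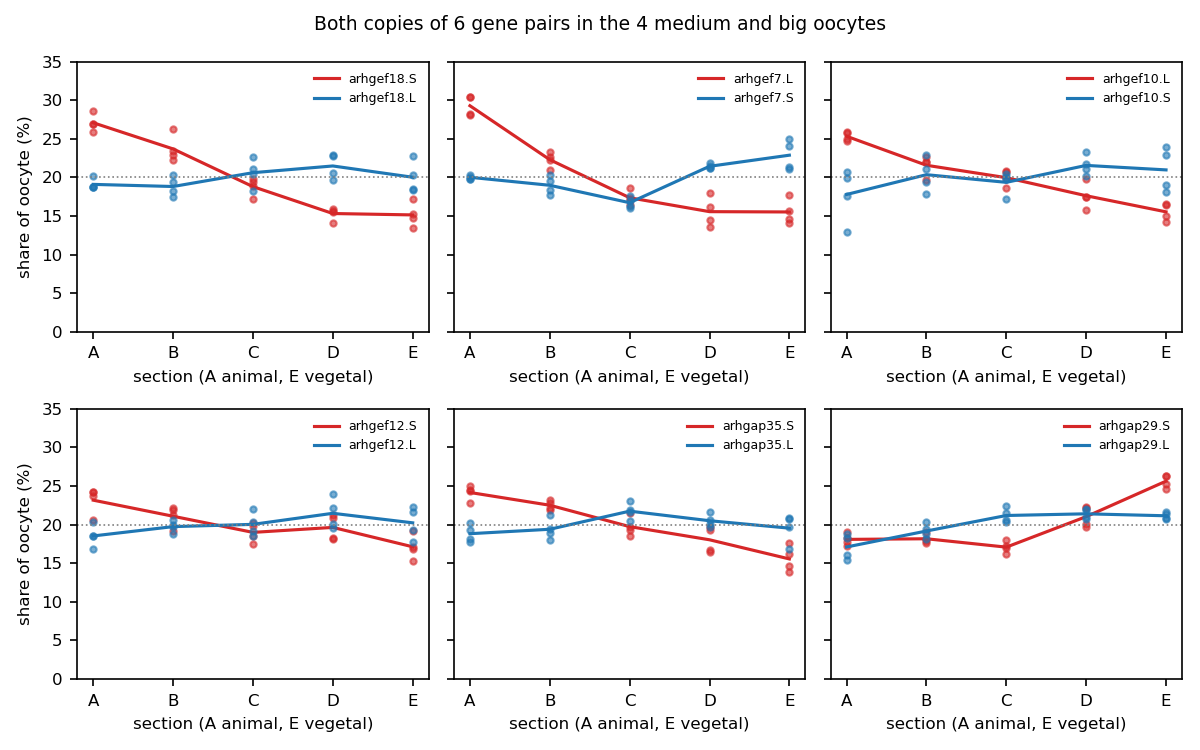
Share of an oocyte's scaled counts (percent, y axis) in sections A to E for both copies of 6 genes in the 4 medium and big oocytes, with points for single oocytes, lines for means and 20% dotted. In the 5 animal pairs the red copy falls from A to E and the blue copy does not, and arhgap29.S rises to between 24.7% and 26.3% in E.

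In small oocytes 7 members were called higher at the animal end, against 10% of all transcripts, and 17 lower, against 8.39%. The 7 included arpc2.L, arpc2.S, arpc5.L and arpc5.S, and 10 of the 17 were GAPs. Of the 5 GEFs among the 17, arhgef11.S, a copy of a RhoA GEF related to LARG, had -0.23 ± 0.05 (padj = 0.0029) and kept its call whichever oocyte was left out. Without small oocyte 4 the counts fell to 3 and 2, and those of all transcripts from 1924 to 480 and from 1612 to 589. Without small oocyte 1 the 17 became 27, and without small oocyte 2 or small oocyte 3 they became 11. The vegetal gradient of small oocytes was called higher in 2 members, against 5.23%, and lower in 5, against 3.44%. The 2 became 0 without small oocyte 2 or small oocyte 4, 1 without small oocyte 1 or any 1 of the very small oocytes, and 4 without medium oocyte 1, medium oocyte 2 or small oocyte 5, and the 5 became 3 without small oocyte 2, small oocyte 3 or small oocyte 4. The polar contrast of small oocytes was called higher in 0 members, against 2.93% (edgeR; 4 had an unadjusted p under 0.05), and lower in 2, arhgap20.L and arhgef10.L, against 0.406%. The 2 became 0 without small oocyte 3 or small oocyte 4, and 1 without small oocyte 2, small oocyte 5, big oocyte 2, very small oocyte 1 or very small oocyte 2.

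Tested within each size class, differences between sections were called in 5 of 108 members in small oocytes (8.95% of all transcripts), in 10 of 112 in medium ones (8.59%) and in 11 of 113 in big ones (10.1%). The calls common to medium and big oocytes were arpc2.L, arhgef7.L, arhgef18.S, arhgef40.L, diaph1.L, arhgap29.S, arhgef10.L and arhgap35.S. The 5 of small oocytes became 1 without small oocyte 4 and 2 without small oocyte 2 or small oocyte 3.

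In very small oocytes the within-class test called 2 of 108 members, against 6.33% of all transcripts, and both were plectin transcripts. Plectin links intermediate filaments to actin and microtubules and is no GTPase regulator. For plec.S section E held 1388, 1428 and 1283 scaled counts in the 3 oocytes, less than any other section of the same oocyte, whose values ran from 1443 to 1742. The largest difference between section means was 0.28 on the log2 scale (padj = 0.00312). For plec.L (padj = 0.0126) section E held 317, 381 and 338 scaled counts, but in very small oocyte 2 section A, at 363, was lower, and the call was lost without very small oocyte 1 or very small oocyte 2. Neither call remained in the fit of all libraries, where vegetal, animal and polar contrasts of very small oocytes were called in 0 of 115 members (edgeR; 5, 6 and 5 members had an unadjusted p under 0.05). The background in that fit was 1.58% higher and 0.0729% lower for the vegetal gradient, 0.0208% and 0.146% for the animal gradient, and 0.77% and 0.0677% for the polar contrast. Changes of gradient between very small and small oocytes were called in 0 members (edgeR; 3 members for the vegetal gradient, 4 for the animal gradient and 1 for the polar contrast had an unadjusted p under 0.05). All transcripts gave 0.885% upward and 0.0677% downward for the vegetal gradient, 0.00521% and 0.0364% for the animal gradient, and 0% for the polar contrast. The polar contrast did not pass the test of change between small and medium or big oocytes in any member, against 0.375% upward and 0.0469% downward (edgeR; 7 and 1 members had an unadjusted p under 0.05). Over the 4 size classes 8 of 115 members changed their profile, against 4.6%.

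Few totals were called between small and medium or big oocytes of the same female. Of 125 members tested, 9 were called higher, against 5.42% of all transcripts, and 8 lower, against 8.13%. arhgef25.L changed most. Its total was 26.7, 6.86, 27.0, 21.7 and 11.7 scaled counts in small oocytes, 67.5 and 57.4 in medium and 66.8 and 75.0 in big ones, without overlap. The log2 change was 1.58 ± 0.31 (padj = 0.00857). Of the 31 stroma, theca and smooth muscle markers tested 6 had higher totals as well and 0 lower, and their part in the rise of arhgef25.L was not tested.

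The other changes of totals were below 1.5-fold. arhgap29.S rose by 0.20 ± 0.04 (padj = 0.00416) and arhgef1.L, a copy of a RhoA GEF of the LARG group, by 0.21 ± 0.04 (padj = 0.0101). arhgef40.L fell by 0.33 ± 0.06 on the log2 scale (padj = 0.00515). Its totals were 976, 1036, 1177, 1156 and 1113 in small oocytes and 978, 916, 862 and 858 in medium and big ones, so that medium oocyte 1 overlapped small oocyte 1. rhou.L fell by 0.45 ± 0.08 (padj = 0.00454), from 1077, 983, 1335, 1075 and 1143 to 815, 799, 926 and 821, with no overlap. rac3.L, a Rac GTPase, fell by 0.42 ± 0.09 (padj = 0.0157), from 205, 223, 202, 206 and 225 to 166, 152, 128 and 153. The rises of arhgef18.S, 0.15 ± 0.04 (padj = 0.0277), and diaph1.L, 0.14 ± 0.04 (padj = 0.0422), were not called when only sections B to E were summed (padj = 0.766 and 0.574). The count of 9 became 3 without big oocyte 2 or without medium oocyte 1. Between medium and big oocytes 0 of 125 members were called, against 0.00459% of all transcripts higher and 0% lower (edgeR; 6 members had an unadjusted p under 0.05).

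Over the 4 size classes 66 of 125 members differed in their totals, against 46.4%. Larger changes lay between very small and small oocytes, which also differ in the female. Here 28 members had higher totals in small oocytes, against 20.2% of all transcripts, and 31 lower, against 19.8%. arhgef16.L, a GEF of the ephexin family, changed most. Its total was 293 and 266 scaled counts in very small oocytes 2 and 3 and 217 in the 4 sections of very small oocyte 1, against 1680, 1853, 1756, 1750 and 1686 in small, 1736 and 1671 in medium and 1774 and 1803 in big oocytes. The log2 change was 2.67 ± 0.05 (padj = 2.8e-13), that is 6.39-fold. Its homeolog arhgef16.S was lower in small oocytes, with a log2 change of -0.40 ± 0.09 (padj = 0.00228), with totals of 361 and 320 in very small oocytes 2 and 3 and 268, 238, 260, 235 and 223 in small ones.

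Among the GAPs, arhgap40.L had the largest fall. Its total was 80.5 and 74.4 in very small oocytes 2 and 3, 55.1 in the 4 sections of very small oocyte 1, and 15.9, 31.4, 15.0, 32.0 and 28.3 in small oocytes. The log2 change was -1.59 ± 0.26 (padj = 0.000263), while arhgap40.S rose by 0.21 ± 0.06 (padj = 0.0127). arhgap27.L and arhgap27.S, copies of a GAP for Rac1 and Cdc42, were both lower in small oocytes, with log2 changes of -0.92 ± 0.11 (padj = 1.31e-05) and -1.06 ± 0.14 (padj = 5.82e-05). arhgap42.L, a copy of a RhoA GAP of smooth muscle, changed by -0.99 ± 0.14 (padj = 7.55e-05). arhgap23.S rose by 0.79 ± 0.06 (padj = 2.59e-07), from 457 and 518 in very small oocytes 2 and 3 to between 769 and 896 in small ones, and arhgap23.L, at 0.08, was not called.

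A formin and several GEFs with low totals in very small oocytes were higher in small ones. Totals of markers of surrounding cells differed as well. Of 21 granulosa and follicle cell markers 10 were higher in small oocytes and 3 lower. Of 31 stroma, theca and smooth muscle markers 15 were higher and 0 lower, and of 15 blood and endothelium markers 2 and 4. All transcripts gave 20.2% and 19.8%. The part of surrounding cells in these rises was not tested. fmnl2-like.S had totals of 10.5 (4 sections), 19.5 and 9.88 in very small and 69.5, 52.4, 85.1, 78.2 and 46.2 in small oocytes, a log2 change of 2.09 ± 0.25 (padj = 1.9e-05). The log2 changes of arhgef33.L, arhgef37.S and arhgef28-like.S were 1.66 ± 0.23, 1.39 ± 0.21 and 1.19 ± 0.16. That of arhgef40.S was larger, at 2.09 (4.26-fold). Both plectin transcripts were lower in small oocytes. plec.S had 8168 and 7607 scaled counts in very small oocytes 2 and 3, 6040 in the 4 sections of very small oocyte 1, and 4772, 5948, 4772, 5501 and 5822 in small oocytes, with a log2 change of -0.53 ± 0.08 (padj = 0.000106), and plec.L changed by -0.42 ± 0.08 (padj = 0.000742).

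**Figure D5:**
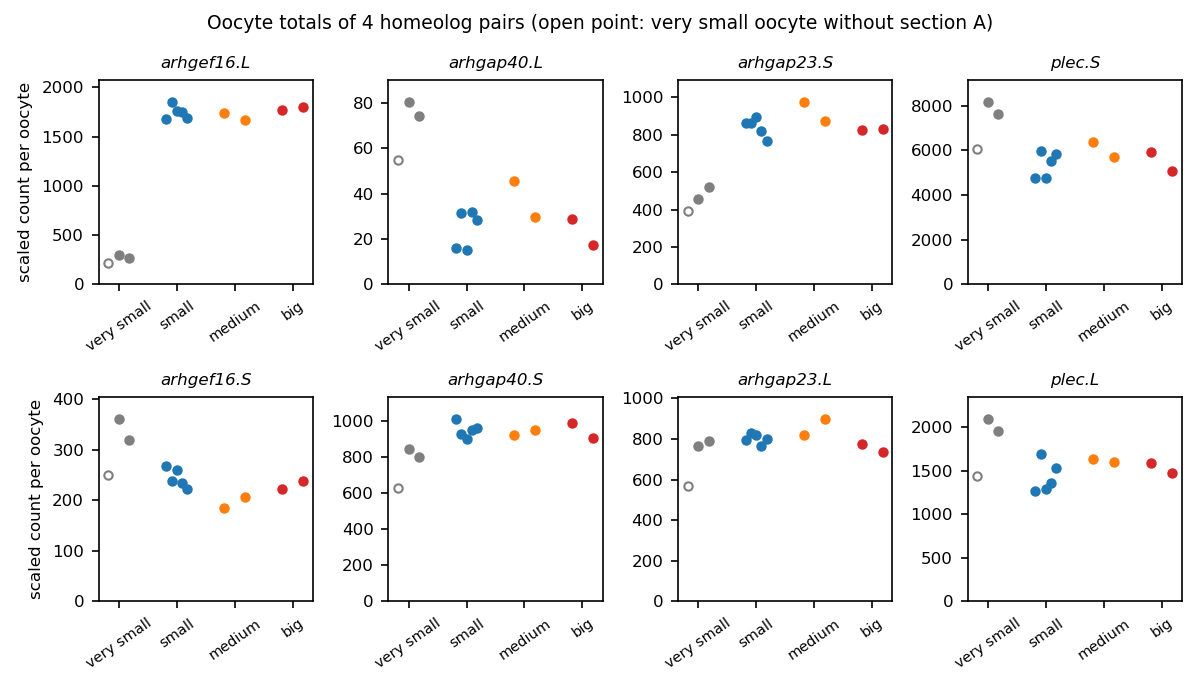
Total scaled counts per oocyte (y axis, from 0) by size class for both copies of 4 genes, 1 point per oocyte; the open point is the very small oocyte with 4 sections. arhgef16.L lies between 217 and 293 in very small oocytes and between 1671 and 1853 in all others, whereas arhgef16.S does not rise.

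Other genes of the pathway, taken from lists by symbol, moved in both directions. Of 59 other GEF transcripts 5 were higher and 17 lower at the animal end of medium and big oocytes, against 13.1% and 11.6% of all transcripts, and those of smallest padj, spata13.S (2.98), spata13.L (1.52) and mcf2l.L (1.08), had animal gradients near or above the largest among the members. Of 26 transcripts for WASP and WAVE activators of Arp2/3, 5 were vegetally higher and 0 lower, against 11.5% and 10.1% of all transcripts, among them wasl.S, a copy of N-WASP, at 2.58. Of 35 other GAPs and GDIs 9 were vegetally higher and 1 lower, against the same 11.5% and 10.1%, led by srgap3.S at 6.55. Of 27 other nucleators and Arp subunits 6 were vegetally higher and 4 lower.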

How the data were processed

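The authors cut oocytes into 5 sections, depleted ribosomal RNA, sequenced paired reads, trimmed them with Trimmomatic, removed ribosomal and mitochondrial reads with SortMeRNA, used STAR 2.5.2b to align the rest to genome build v9.1, and obtained counts per gene from HTSeq. The strand setting is not given in the sources used here. The deposited table of raw counts per transcript was used; tables holding the authors' own comparisons and normalised values were not. R 4.3.3 with edgeR 4.0.16 was run on all transcripts with TMM scaling, filterByExpr and quasi-likelihood tests. Gradients used all 59 libraries with the oocyte as block. Changes of gradient used stage by section groups without it, and tests of totals used raw counts summed per oocyte, with TMM scaling after summing. Alternatives were DESeq2 1.42.0, its size factors, no filter, other limits, other block settings and leaving out each oocyte. Sections of the same oocyte deviated together (median correlation of deviations from the means of section and size class 0.211, 116 pairs of libraries). Between oocytes of a size class it was -0.132. Deviations from means of 2 to 5 oocytes make this second value negative by construction, so it is no measure of independence. All 73 replicate pairs compared differed by more than sampling noise. Members and lists were chosen with earlier results of these data known. Transcripts named were drawn, per contrast, from up to 8 called members in each direction by padj, with their homeologs. Those of rhoa, rac1, cdc42, plec, arpc, diaph and fmn were added whatever their values. These are the 85 named members below, and not every one of them is printed. The fits were also run on simulated counts, drawn at a fixed dispersion without an oocyte effect and without transcripts of few counts. That run does not test the fits for sections of an oocyte that deviate together or for low totals. Counting sets the precision of low totals.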

Additional observations from a re-analysis of the deposited data

Results flagged for a closer look

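In 9 of 207 groups of 5 small oocytes 1 oocyte stood apart from the other 4 by Dixon's criterion at 0.71, and chance gives about 1 in 20. Small oocyte 3 stood apart in the totals of arhgef12.S (2665) and arhgef2.S (204.3) and in the section A share of fmn1.L (4.25%), and small oocyte 2 in the total of arhgap20.S (961.5). Small oocyte 1 stood apart in the section A shares of arhgef2.L (19.96%) and arpc2.L (29.3%), small oocyte 4 in the section E shares of arhgef11.S (22.6%) and diaph1.L (22.9%), and small oocyte 5 in the section A share of diaph1.S (13.1%).

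Gradients that differed between small and medium or big oocytes, by the test of the change itself in edgeR, are the other results to look at again. For the animal gradient the log2 changes were 0.77 for arhgef7.L, 0.76 for arhgef18.S, 0.76 for arpc2.L, 0.57 for diaph1.L, 0.54 for arhgef10.L, 0.44 for arhgap35.S, 0.42 for arhgef12.S and 0.31 for arhgef2.L. For the vegetal gradient they were 0.78 for arhgef40.L, 0.51 for arhgef38.L, 0.34 for arhgap29.S, -0.29 for arhgef12.S, -0.34 for arhgef10.L, -0.40 for diaph1.L, -0.41 for arhgef7.L, -0.44 for arhgap35.S, -0.57 for arhgef18.S and -0.58 for arpc2.L. Of these, the vegetal changes of arpc2.L (padj = 0.068), arhgef12.S (padj = 0.0881) and arhgef38.L (padj = 0.0979) were nearest to the limit, and each was lost without any 1 of several oocytes.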

How the results depend on the processing

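Among 262 calls of the 85 named members and 4427 alternatives, 3750 kept their call, 677 lost it and 0 turned direction, and 69 calls held in every alternative. Tests of sections, of profiles and over the 4 size classes have no direction, and changed limits reuse the same log2 value, so that none of these could turn. The number of members called moved by more than 1.5 times as follows. Without the replicate block, section differences were called in 1 member in very small and 3 in small oocytes, and 1 was vegetally higher in small ones. With the oocyte as replicate block, 5 vegetal gradients changed upward. The block changed no other count by that much. With all libraries in 1 fit, section differences were called in 0, 11 and 18 members of very small, small and big oocytes. With DESeq2, 1 was called in very small oocytes, and with its size factors 3 in small ones. Without the filter, 4 were called in very small oocytes and 1 was vegetally higher in small ones. The looser reading of the symbols, with 156 members, gave 4 section differences in very small oocytes, 4 vegetally higher in small oocytes and 3 lower in the polar contrast. With an FDR under 0.05, section differences in small oocytes fell to 3, vegetally higher members there to 1 and animally lower ones to 9. With sections B to E, 5 totals rose from small to medium and big oocytes.

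At 1.5-fold or more, section differences were called in 0 members of very small and 0 of small oocytes, and 0 gradients remained in small oocytes in either direction. In medium and big oocytes 6 members were vegetally higher, 2 vegetally lower, 6 animally higher, 0 animally lower, 2 higher and 0 lower in the polar contrast. The vegetal gradient changed upward in 1 and downward in 0, the animal one upward in 3. Totals rose in 1 and fell in 0 from small to medium and big oocytes, and rose in 13 and fell in 6 from very small to small ones. Shares of all transcripts at this limit are not given here, so that these counts describe the members' calls only.

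Leaving out 1 oocyte at a time, section differences were called in 1 to 2 members of very small, 1 to 6 of small, 10 to 11 of medium and 10 to 12 of big oocytes. In small oocytes 0 to 4 were vegetally higher, 3 to 5 vegetally lower, 3 to 8 animally higher and 2 to 27 animally lower. In medium and big ones 3 to 13 were vegetally higher, 11 to 15 vegetally lower, 9 to 17 animally higher, 8 to 17 animally lower, 2 to 7 higher and 1 to 5 lower in the polar contrast. The animal gradient changed upward in 7 to 8 and downward in 0 to 1, the vegetal one upward in 2 to 4 and downward in 3 to 7, and whole profiles in 7 to 9. Totals rose in 3 to 13 and fell in 6 to 9 from small to medium and big oocytes, and rose in 21 to 29 and fell in 23 to 38 from very small to small ones. With 1 oocyte left in a class, it is assumed to vary like the others. The causes of these shifts were not tested. Where no count of all transcripts stands beside them, here and above, these counts describe the members' calls only. They do not show whether members and other transcripts lost calls alike. With 2 oocytes in each of the largest classes and 1014060 counts in the shallowest library, low members are least certain.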
